A study of Mus musculus with 8 samples.

Results

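Effector T, regulatory T and NK genes were followed across 8 mouse spleen tumours. The 35 genes of this set, of 41214 gene identifiers in the count tables, were listed by symbol and function: regulatory T cell factors and receptors, checkpoint receptors, cytokines, effector transcription factors, granule and killing genes, NK receptors, chemokines and effector surface receptors. All 35 symbols were matched to Ensembl identifiers through the GENCODE M21 annotation of GRCm38. The tumours fell into 4 groups of 2 libraries: CD4+ T cell tumours with Miz1 deltaPOZ (T deltaPOZ), CD4+ T cell tumours with Miz1 wt (T wt), B cell tumours with Miz1 deltaPOZ (B deltaPOZ) and B cell tumours with Miz1 wt (B wt). Every mouse was labelled C57Bl6, and each library came from a different mouse. Miz1, encoded by Zbtb17, is a zinc finger transcription factor, and the POZ domain removed in deltaPOZ mice is the part through which it oligomerises. The names of all T libraries also carry the tag Notch, and those of the T deltaPOZ libraries the tag ENU. The labels do not explain these tags, and no source used here gives the Cre driver, the age or sex of the mice or how the tumours arose. Within the T tumours, deltaPOZ and whatever the ENU tag marks cannot be told apart. Library names also carry 1 run tag for all B tumours and another for all T tumours, which the labels do not explain either, so that lineage and whatever this tag marks cannot be told apart.

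Cytotoxic T cells and natural killer (NK) cells kill targets by releasing perforin and granzymes from granules, and by Fas ligand. Regulatory T cells depend on the transcription factor FOXP3 and carry CTLA4, ICOS, GITR and OX40 on their surface. Checkpoint receptors such as PD-1, LAG3, TIGIT and TIM-3 appear on activated T cells and restrain them. In spleen, these genes are read mainly from T and NK cells, and in a bulk B cell tumour they are commonly used as a sign of such cells. Since each library is a bulk tumour, fewer cells of a type and less RNA per cell cannot be told apart in any value below.

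Between 44330101 and 58271208 reads were assigned to genes in a library, and a count of 3 was worth 0.0497 to 0.0667 CPM (counts per 1000000 reads of the tested genes, after TMM scaling between libraries). Of the T lineage markers, all 21 were higher in T tumours, and of the B lineage markers 11 of 12 were lower (edgeR adjusted p under 0.05). The labelled T tumours had Cd3e at 78.5 to 93.4 CPM, Cd4 at 98.8 to 432 CPM and Cd8a at 356 to 1246 CPM, so both coreceptor genes were present in tumours named for CD4. Cd79b, a chain of the B cell receptor, was at 5.23 to 25.2 CPM in the T tumours, against 468 to 971 CPM in the B tumours. Zbtb17 did not separate the genotypes in B tumours: it had 49.4 and 59.1 CPM in B deltaPOZ, against 66.1 and 48 CPM in B wt. In the T tumours it had 40.1 and 36.9 CPM in T deltaPOZ, against 49.6 and 42.3 CPM in T wt. A gene-level count does not check the loss of a domain. Xist, transcribed from the inactive X chromosome, was under 1 CPM in both B deltaPOZ libraries, against 975 and 1477 CPM in B wt, and Y-linked Ddx3y had 174 and 133 CPM in B deltaPOZ, against 0.0949 and 0.289 CPM in B wt. The B tumours thus split by sex exactly as by genotype, and there sex and genotype cannot be told apart. T wt 1 held Xist at 1246 CPM and Ddx3y at 22.5 CPM, and the other T libraries Xist at 11.8 to 35.4 CPM and Ddx3y at 142 to 184 CPM.

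RefSeq promoter windows of the GRCm38.p6 assembly were available for 25 of the 35 genes. Those of 4 genes are shown because they pair a gene that was abundant in all T tumours with a low one from the same locus: Gzma with Gzmk, 70.6 kb apart on chromosome 13, and Klrb1c with Klrk1, both in the NK gene complex on chromosome 6. Each is the 250 bases before the RefSeq start, 5′ to 3′ on the minus strand, and capitals mark matches on either strand to TGTGGT, the core letters of a RUNX motif, TCACAC, those of a T-box motif, or GGAAGT, those of an ETS motif.
Gzma (chr13:113100982-113101231): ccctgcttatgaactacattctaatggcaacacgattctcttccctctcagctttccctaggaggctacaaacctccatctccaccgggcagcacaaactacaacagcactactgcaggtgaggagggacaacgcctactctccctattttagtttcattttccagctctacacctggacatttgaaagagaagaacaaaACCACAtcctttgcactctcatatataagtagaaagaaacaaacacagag
Gzmk (chr13:113180966-113181215): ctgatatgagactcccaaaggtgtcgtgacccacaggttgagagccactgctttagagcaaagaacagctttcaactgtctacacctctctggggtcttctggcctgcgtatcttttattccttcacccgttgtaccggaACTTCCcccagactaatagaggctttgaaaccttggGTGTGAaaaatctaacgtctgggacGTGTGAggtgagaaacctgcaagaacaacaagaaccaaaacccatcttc
Klrb1c (chr6:128788642-128788891): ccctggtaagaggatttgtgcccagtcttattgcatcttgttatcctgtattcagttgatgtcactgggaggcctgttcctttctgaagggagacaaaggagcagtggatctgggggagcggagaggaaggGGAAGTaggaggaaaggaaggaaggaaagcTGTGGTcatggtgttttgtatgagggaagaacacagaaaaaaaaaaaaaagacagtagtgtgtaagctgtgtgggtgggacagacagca
Klrk1 (chr6:129623865-129624114): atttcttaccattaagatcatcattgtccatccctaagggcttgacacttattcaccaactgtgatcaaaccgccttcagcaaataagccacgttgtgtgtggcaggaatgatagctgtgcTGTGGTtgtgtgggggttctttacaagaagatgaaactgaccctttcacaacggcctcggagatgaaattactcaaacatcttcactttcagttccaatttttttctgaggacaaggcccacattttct
The Gzma window held 1 RUNX match and the Gzmk window none, with 2 T-box matches and 1 ETS match instead. Klrb1c and Klrk1 each held 1 RUNX match, and Klrb1c also 1 ETS match. Across all 32851 mouse promoter windows of this length, 14% held the RUNX letters, 12.3% the T-box letters and 19.7% the ETS letters. Of the 29 windows of these 25 genes, 15 held RUNX, 9 T-box and 11 ETS letters. Cd160, Ncr1, Il4 and Foxp3 each had 2 of these windows, and those of Ncr1 largely overlap. The letters did not sort the pairs by level, since the RUNX match was shared by Klrb1c and Klrk1, and a match is no evidence of binding.

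In T tumours against B tumours, 21 of the 34 genes that passed the low count filter were higher and none was lower (edgeR quasi-likelihood test, adjusted p under 0.05). That is 61.8% of the 34, against 35.3% of all 16456 tested genes called in either direction and 19.3% called higher. The median log2 fold change of the 34 genes was 2.27, or 2.24 with genes at 0 in a group set to their bound, against 0.05 over all tested genes. The gene that did not pass the filter was Il4, with 0 or 1 count in each B library and 3 to 16 counts in each T library. In 16 of the 35 genes (45.7%) all 4 T libraries lay above all 4 B libraries, against 20.1% of all tested genes. In none did all B libraries lie above all T libraries, against 17% of all tested genes. By role, the 5 checkpoint receptors and the 3 tested cytokines were all called, against 4 of 6 regulatory T genes, 5 of 8 granule genes, 2 of 3 chemokines, 1 of 3 surface receptors, 1 of 4 NK receptors and 0 of 2 transcription factors. Some called genes, the 3 cytokines and Tigit among them, were at most 0.176 CPM in any B library and passed the low count filter through the T libraries. Genes kept in this way could hardly be called lower in T tumours. The shares by role and the 61.8% are therefore partly set by the filter. Without the T wt 1 library the count of 21 became 10, without T deltaPOZ 2 it was 10, and without B deltaPOZ 2 or B wt 1 it was 12. The count over all genes was 3840 without T wt 1 and 3621 without T deltaPOZ 2, against 5801 with all libraries.

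**Figure D1:**
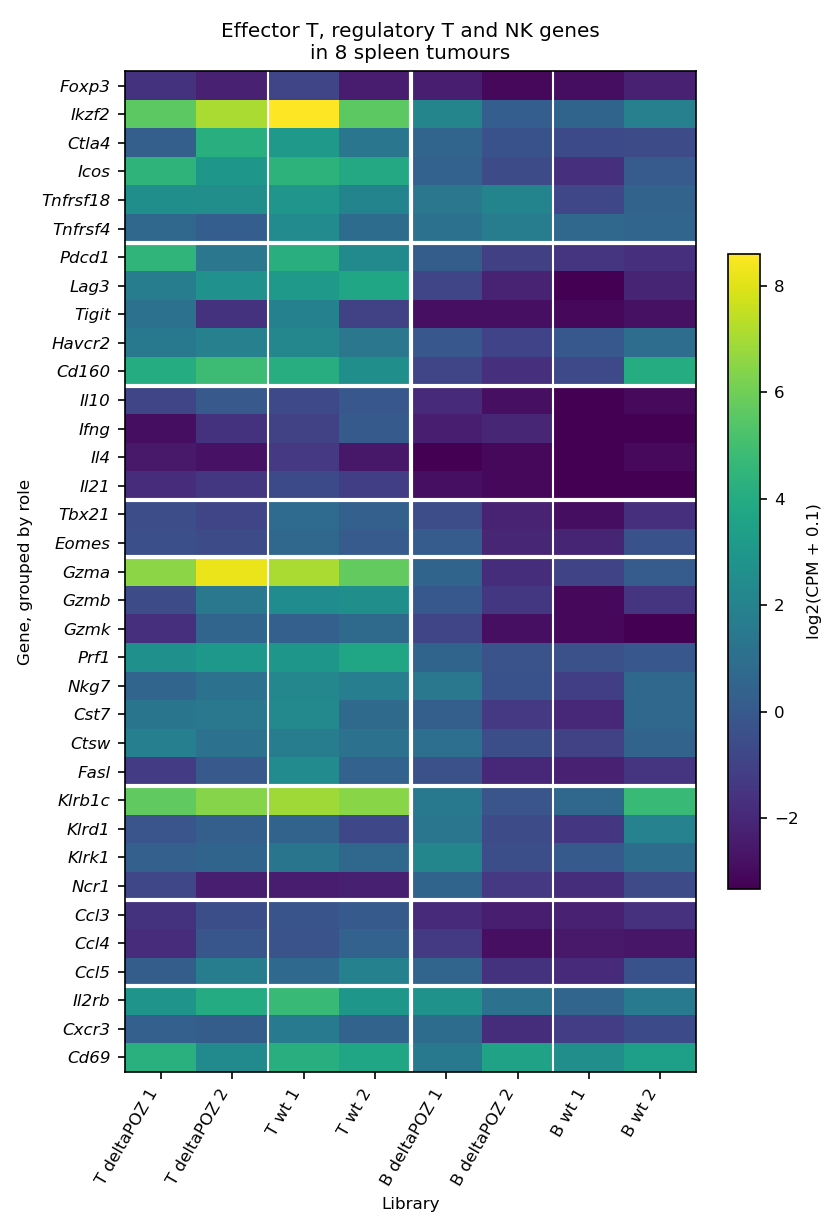
Level of each of the 35 genes (rows, grouped by role) in each of the 8 libraries (columns) as log2(CPM + 0.1), with T tumours left and B tumours right and deltaPOZ left of wt in each lineage. Ikzf2, Gzma and Klrb1c are bright in all 4 T libraries, and Klrb1c and Cd160 are bright in only 1 of the 4 B libraries, B wt 2.

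Among the regulatory T genes, Ikzf2 and Icos stood high in T tumours while Foxp3, the defining factor, was near the counting floor. Foxp3 had 0.238 and 0.116 CPM in T deltaPOZ, 0.464 and 0.0901 CPM in T wt, 0.0975 and 0.0199 CPM in B deltaPOZ and 0.038 and 0.111 CPM in B wt, which is 1 to 25 counts per library. The groups of Foxp3 overlapped, and T against B did not pass the test (edgeR log2 fold change 1.71 ± 0.82 SE, adjusted p = 0.146). Foxp3 also shares exon bases with Flicr, Ccdc22 and Ppp1r3f, and the strand setting of the counting is not given, so even these few counts are uncertain. Ikzf2, which encodes the Ikaros family factor Helios found in regulatory T cells and in developing T cells, had 47.8 and 134 CPM in T deltaPOZ, 384 and 47.2 CPM in T wt, 4.19 and 1.06 CPM in B deltaPOZ and 1.31 and 3.54 CPM in B wt. Every T library was above every B library, and T wt 1 stood highest (edgeR log2 fold change 5.80 ± 0.93 SE, adjusted p = 0.00489). Icos, a costimulatory receptor, had 21.4 and 7.69 CPM in T deltaPOZ, 21 and 14.5 CPM in T wt, 1.25 and 0.578 CPM in B deltaPOZ and 0.209 and 0.956 CPM in B wt. All T libraries again exceeded all B libraries (edgeR log2 fold change 4.46 ± 0.64 SE, adjusted p = 0.00351).

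Ctla4, an inhibitory receptor that competes with CD28 for its ligands, had 1.1 and 18.4 CPM in T deltaPOZ, 8.36 and 2.49 CPM in T wt, 1.37 and 0.698 CPM in B deltaPOZ and 0.531 and 0.556 CPM in B wt. The T libraries spread widely, T deltaPOZ 1 lay below B deltaPOZ 1, and the difference still passed the test (edgeR log2 fold change 3.27 ± 0.90 SE, adjusted p = 0.03). Tnfrsf18 encodes GITR, a costimulatory receptor of regulatory and activated T cells. Its levels were 5.97 and 5.83 CPM in T deltaPOZ, 7.24 and 3.98 CPM in T wt, 2.5 and 4.07 CPM in B deltaPOZ and 0.475 and 1.29 CPM in B wt. The lowest T library, T wt 2, was just under the highest B library, B deltaPOZ 2, and T against B was called (edgeR log2 fold change 1.76 ± 0.43 SE, adjusted p = 0.0211). Tnfrsf4, next to it on chromosome 4, encodes OX40, another costimulatory receptor, and had 1.47 and 1.06 CPM in T deltaPOZ, 5.22 and 1.73 CPM in T wt, 2.16 and 3.09 CPM in B deltaPOZ and 1.52 and 1.4 CPM in B wt. T wt 1 lay above and T deltaPOZ 2 below every B library, and no difference passed the test (edgeR log2 fold change 0.10 ± 0.43 SE, adjusted p = 0.882).

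All 5 checkpoint receptors were higher in T tumours. Pdcd1, which encodes PD-1, had 22 and 2.52 CPM in T deltaPOZ, 17.3 and 4.9 CPM in T wt, 1.05 and 0.379 CPM in B deltaPOZ and 0.247 and 0.2 CPM in B wt. Each T library was above each B library, and the T libraries 1 of both genotypes were the high ones (edgeR log2 fold change 4.85 ± 0.88 SE, adjusted p = 0.0072). Lag3, a receptor that binds MHC class II, had 3.1 and 6.46 CPM in T deltaPOZ, 8.69 and 12.9 CPM in T wt, 0.468 and 0.12 CPM in B deltaPOZ and 0 and 0.133 CPM in B wt. Its B levels were at most 0.468 CPM, with none counted in B wt 1, and the 2 lineages did not overlap (edgeR log2 fold change 5.68 ± 0.90 SE, adjusted p = 0.00485). Tigit, a receptor for the poliovirus receptor PVR, had 2.18 and 0.232 CPM in T deltaPOZ, 3.68 and 0.415 CPM in T wt, 0.039 and 0.0399 CPM in B deltaPOZ and 0.019 and 0.0445 CPM in B wt. T deltaPOZ 1 and T wt 1 were high, and the other T libraries were lower but still above every B library (edgeR log2 fold change 5.39 ± 1.12 SE, adjusted p = 0.0116).

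Havcr2, which encodes TIM-3, a receptor also found on myeloid cells, had 2.68 and 3.51 CPM in T deltaPOZ, 4.51 and 2.51 CPM in T wt, 0.839 and 0.419 CPM in B deltaPOZ and 0.873 and 1.8 CPM in B wt. T libraries lay above B libraries by a modest margin (edgeR log2 fold change 1.84 ± 0.45 SE, adjusted p = 0.0199). Cd160, an immunoglobulin family receptor of NK cells and some T cells, had 16.3 and 28.2 CPM in T deltaPOZ, 17.1 and 6.02 CPM in T wt, 0.468 and 0.219 CPM in B deltaPOZ and 0.512 and 16.7 CPM in B wt. The B wt 2 library reached the T range while the other 3 B libraries were at most 0.512 CPM, so the lineages overlapped (edgeR log2 fold change 3.22 ± 0.99 SE, adjusted p = 0.0441). Cd160 shares 68 exon bases with Pdzk1 on the other strand, which had 3 to 53 counts.

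The 4 cytokines were low everywhere. Il10, an anti-inflammatory cytokine, was at 0.458 to 0.895 CPM in T tumours, against 0 to 0.176 CPM in B tumours, and did not overlap (edgeR log2 fold change 4.18 ± 0.80 SE, adjusted p = 0.00882). Ifng, the type II interferon, was at 0.0366 to 0.919 CPM in T tumours, against 0 to 0.14 CPM in B tumours, with T deltaPOZ 1 inside the B range (edgeR adjusted p = 0.0249). Il21, a cytokine of helper T cells, was at 0.183 to 0.539 CPM in T tumours, against 0 to 0.039 CPM in B tumours, which is 3 counts in all 4 B libraries (edgeR adjusted p = 0.00494). No fold is given for Ifng or Il21, since both B wt libraries were at 0. Il4, the cytokine of type 2 helper T cells, was at 0.0497 to 0.297 CPM in T tumours, against 0 to 0.0222 CPM in B tumours.

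Neither effector transcription factor was called. Tbx21, which encodes T-bet, the factor of type 1 helper and NK cells, had 0.605 and 0.464 CPM in T deltaPOZ, 1.71 and 1.15 CPM in T wt, 0.605 and 0.12 CPM in B deltaPOZ and 0.038 and 0.2 CPM in B wt. B deltaPOZ 1 reached the level of T deltaPOZ 1 and the test was just missed (edgeR log2 fold change 2.07 ± 0.71 SE, adjusted p = 0.0596). Eomes, a T-box factor of NK and memory CD8 T cells, had 0.66 and 0.58 CPM in T deltaPOZ, 1.49 and 0.973 CPM in T wt, 1.01 and 0.14 CPM in B deltaPOZ and 0.133 and 0.712 CPM in B wt. B deltaPOZ 1 and B wt 2 lay within the T range (edgeR log2 fold change 0.82 ± 0.75 SE, adjusted p = 0.429).

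The granule genes split into an abundant granzyme A and a set at a few CPM. Gzma, a tryptase of cytotoxic granules, had 92.6 and 298 CPM in T deltaPOZ, 134 and 52.8 CPM in T wt, 1.35 and 0.199 CPM in B deltaPOZ and 0.437 and 1 CPM in B wt. The lowest T library, T wt 2, was far above the highest B library, and the fold was the largest in the set among genes with no group at 0 (edgeR log2 fold change 7.50 ± 0.82 SE, adjusted p = 0.0015). Prf1, which encodes the pore-forming perforin, had 6.3 and 8.02 CPM in T deltaPOZ, 7.8 and 13.2 CPM in T wt, 1.31 and 0.718 CPM in B deltaPOZ and 0.664 and 0.845 CPM in B wt. T and B did not overlap, and the spread within each lineage was small (edgeR log2 fold change 3.31 ± 0.37 SE, adjusted p = 0.00153). Gzmb, which encodes the caspase-activating granzyme B, had 0.586 and 2.65 CPM in T deltaPOZ, 5.4 and 5.93 CPM in T wt, 0.858 and 0.279 CPM in B deltaPOZ and 0.019 and 0.245 CPM in B wt. T deltaPOZ 1 was within the B range and the other T libraries were above it (edgeR log2 fold change 3.47 ± 0.85 SE, adjusted p = 0.0208). Gzmk, the tryptase gene beside Gzma, had 0.202 and 1.36 CPM in T deltaPOZ, 1.15 and 1.64 CPM in T wt, 0.468 and 0.0399 CPM in B deltaPOZ and 0.019 and 0 CPM in B wt. T deltaPOZ 1 was again below B deltaPOZ 1 (edgeR log2 fold change 4.21 ± 1.09 SE, adjusted p = 0.0249). Gzma and Gzmk are members of a gene family, and reads that could not be placed uniquely may be lost from either.

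Fasl, the death ligand for FAS, had 0.33 and 0.895 CPM in T deltaPOZ, 5.31 and 1.24 CPM in T wt, 0.663 and 0.159 CPM in B deltaPOZ and 0.114 and 0.245 CPM in B wt. Its highest library was T wt 1, and T deltaPOZ 1 lay within the B range (edgeR log2 fold change 2.38 ± 0.75 SE, adjusted p = 0.0467). Nkg7, a membrane protein of cytotoxic granules, had 1.37 and 2.1 CPM in T deltaPOZ, 4.44 and 3.28 CPM in T wt, 2.59 and 0.698 CPM in B deltaPOZ and 0.361 and 1.51 CPM in B wt. B deltaPOZ 1 exceeded both T deltaPOZ libraries, and no call was made (edgeR log2 fold change 1.06 ± 0.61 SE, adjusted p = 0.216). Cst7, which encodes cystatin F, an inhibitor of granule cathepsins, had 2.4 and 2.6 CPM in T deltaPOZ, 4.83 and 1.66 CPM in T wt, 1.11 and 0.299 CPM in B deltaPOZ and 0.152 and 1.53 CPM in B wt. The lineages did not overlap, yet the test was missed (edgeR log2 fold change 1.88 ± 0.81 SE, adjusted p = 0.112). Ctsw, a cysteine protease of cytotoxic cells, had 3.43 and 2.14 CPM in T deltaPOZ, 3.16 and 2.15 CPM in T wt, 1.95 and 0.638 CPM in B deltaPOZ and 0.399 and 1.27 CPM in B wt. The lineages were apart here too, by a narrow gap, without a call (edgeR log2 fold change 1.39 ± 0.56 SE, adjusted p = 0.0939).

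Of the 4 NK receptors, Klrb1c alone was called, and the other 3 had fold changes below 0. Klrb1c encodes NK1.1, the activating receptor that marks NK and NKT cells in C57Bl6 mice, and had 51.1 and 84.4 CPM in T deltaPOZ, 118 and 87.7 CPM in T wt, 2.71 and 0.777 CPM in B deltaPOZ and 1.48 and 26 CPM in B wt. The T tumours lay above all B tumours, with B wt 2 the nearest (edgeR log2 fold change 4.09 ± 0.89 SE, adjusted p = 0.0134). Klrd1, which encodes CD94, the partner of the NKG2 receptors, had 0.77 and 1.11 CPM in T deltaPOZ, 1.3 and 0.505 CPM in T wt, 2.42 and 0.578 CPM in B deltaPOZ and 0.266 and 3.8 CPM in B wt. B wt 2 and B deltaPOZ 1 were above every T library (edgeR log2 fold change -0.92 ± 0.86 SE, adjusted p = 0.441). Klrk1, which encodes the activating receptor NKG2D, had 1.15 and 1.31 CPM in T deltaPOZ, 2.36 and 1.53 CPM in T wt, 4.25 and 0.638 CPM in B deltaPOZ and 0.949 and 1.73 CPM in B wt. B deltaPOZ 1 was highest of the 8 libraries (edgeR log2 fold change -0.23 ± 0.61 SE, adjusted p = 0.798). Ncr1, which encodes NKp46, a receptor largely restricted to NK cells, had 0.476 and 0.0994 CPM in T deltaPOZ, 0.0929 and 0.108 CPM in T wt, 1.31 and 0.299 CPM in B deltaPOZ and 0.19 and 0.578 CPM in B wt. Of the T libraries only T deltaPOZ 1 was above 0.108 CPM, and B deltaPOZ 1 was highest overall (edgeR log2 fold change -1.69 ± 0.77 SE, adjusted p = 0.131).

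Chemokines and surface receptors were low to moderate. Ccl3, an inflammatory chemokine of the CC family, was at 0.238 to 0.937 CPM in T tumours, against 0.0997 to 0.222 CPM in B tumours (edgeR log2 fold change 1.98 ± 0.54 SE, adjusted p = 0.0293). Its lineages did not overlap. Ccl4, a close relative encoded beside it, had 0.183 and 0.796 CPM in T deltaPOZ, 0.724 and 1.26 CPM in T wt, 0.312 and 0.0399 CPM in B deltaPOZ and 0.0759 and 0.0667 CPM in B wt. T deltaPOZ 1 lay below B deltaPOZ 1 (edgeR log2 fold change 2.61 ± 0.79 SE, adjusted p = 0.0416). Ccl5, a chemokine of activated T and NK cells, had 1.03 and 3.05 CPM in T deltaPOZ, 1.56 and 3.68 CPM in T wt, 1.4 and 0.239 CPM in B deltaPOZ and 0.171 and 0.689 CPM in B wt. B deltaPOZ 1 was within the T range and no call was made (edgeR log2 fold change 1.96 ± 0.78 SE, adjusted p = 0.0925).

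Il2rb, the beta chain shared by the IL-2 and IL-15 receptors, had 7.13 and 15.7 CPM in T deltaPOZ, 25.9 and 7.71 CPM in T wt, 6.83 and 2.17 CPM in B deltaPOZ and 1.39 and 2.82 CPM in B wt. B deltaPOZ 1 came close to T deltaPOZ 1, the lowest T library, and the lineages stayed apart (edgeR log2 fold change 2.17 ± 0.59 SE, adjusted p = 0.0295). Cxcr3, the receptor for interferon-induced chemokines, had 1.14 and 1.03 CPM in T deltaPOZ, 2.77 and 1.3 CPM in T wt, 1.76 and 0.199 CPM in B deltaPOZ and 0.342 and 0.534 CPM in B wt. Its ranges overlapped through B deltaPOZ 1 (edgeR log2 fold change 1.18 ± 0.68 SE, adjusted p = 0.22). Cd69, an early activation marker of T, B and NK cells, had 18.7 and 4.92 CPM in T deltaPOZ, 18 and 12.9 CPM in T wt, 2.69 and 11.5 CPM in B deltaPOZ and 5.88 and 10.3 CPM in B wt. T deltaPOZ 2 fell among the B libraries (edgeR log2 fold change 0.83 ± 0.59 SE, adjusted p = 0.305).

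**Figure D2:**
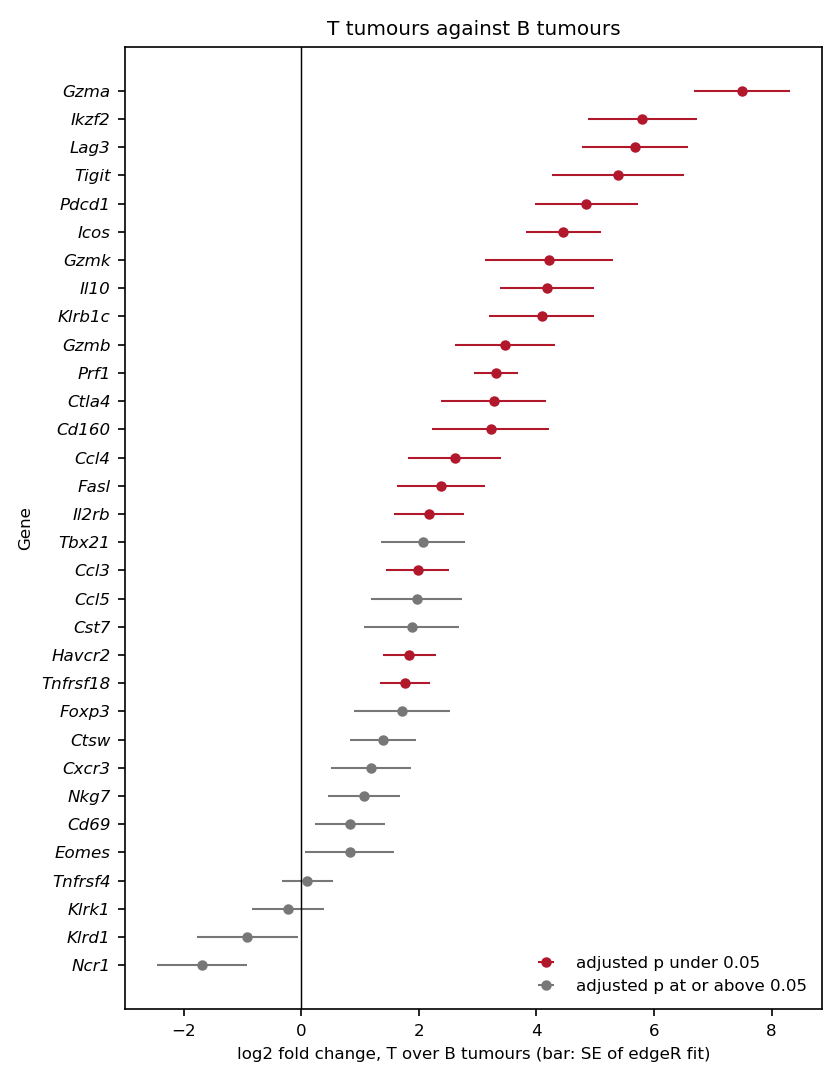
Log2 fold change of T over B tumours from the edgeR fit for 32 of the 35 genes, ordered by size, with bars for its standard error. Il4 was not tested, and Ifng and Il21 are left out because both B wt libraries were at 0. Red points passed the adjusted p threshold of 0.05 and all lie to the right of 0. Klrk1, Klrd1 and Ncr1 lie to its left.

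Calls in T against B varied in how far they depended on a library. Gzma, Icos, Ikzf2, Il10, Il21, Klrb1c, Lag3, Pdcd1 and Prf1 kept an edgeR adjusted p under 0.05 whichever of the 8 libraries was left out. Tigit lost its call without B wt 1 alone (edgeR adjusted p = 0.0513). Tnfrsf18 lost it without B deltaPOZ 1 (0.0643), T deltaPOZ 1 (0.0586), T deltaPOZ 2 (0.0581) or T wt 1 (0.07), all edgeR adjusted p. Gzmb lost its call without B deltaPOZ 2, T deltaPOZ 2, T wt 1 or T wt 2 (edgeR adjusted p = 0.051 to 0.0639). Gzmk lost it without B wt 1, B wt 2 or any T library but T deltaPOZ 1 (edgeR adjusted p = 0.0543 to 0.0789). Havcr2 lost it without B deltaPOZ 2, B wt 1, T deltaPOZ 2 or T wt 1 (edgeR adjusted p = 0.0533 to 0.0672), and Il2rb without those 4 or B wt 2 (0.0538 to 0.0945).

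The remaining 6 called genes kept their call in at most 2 of the 8 such fits. Cd160 kept it without B wt 1 (edgeR adjusted p = 0.0221) or B wt 2 (0.00636) and lost it without any other library (at most 0.126). Ctla4 kept it without T deltaPOZ 1 (edgeR adjusted p = 0.00984) or T wt 2 (0.0411) and otherwise reached at most 0.0958. Ccl4 kept it without B deltaPOZ 1 (edgeR adjusted p = 0.0284) or T deltaPOZ 1 (0.0465) and otherwise reached at most 0.148. Fasl kept it without B deltaPOZ 1 (edgeR adjusted p = 0.0476) or T wt 2 (0.0438) and otherwise reached at most 0.161. Ccl3 kept it without T deltaPOZ 1 alone (edgeR adjusted p = 0.0408, otherwise at most 0.116), and Ifng likewise (0.0274, otherwise at most 0.0857).

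Within a genotype the lineage difference was also tested. T deltaPOZ against B deltaPOZ gave 6 calls among the genes, all higher, beside 9.82% of all tested genes called higher and 17.2% in either direction. T wt against B wt gave 12, all higher, beside 9.73% of all tested genes called higher and 16.4% in either direction. The difference between the genotypes in these lineage effects is the same contrast as the difference of the deltaPOZ effect described further on, in which no gene was called.

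Per kilobase of exon, Gzma held the highest T level of the set at 144 CPM per kb, followed by Klrb1c at 28.8, Ikzf2 at 13.2, Cd160 at 6.41 and Pdcd1 at 6.05 CPM per kb. Foxp3 was last of the 35 at 0.0496 CPM per kb. In the B tumours Klrb1c led at 2.61 CPM per kb, followed by Cd160 at 1.7, Tnfrsf4 at 1.5, Nkg7 at 1.41 and Klrd1 at 1.38 CPM per kb, and the first 2 owed this to B wt 2. Between neighbours in the T order, the ranges over 4 libraries overlapped in 33 of 34 pairs, and only Gzma, at 52.2 to 295 CPM per kb, was apart from the next gene, Klrb1c, at 17.3 to 39.8 CPM per kb. In the B order the ranges overlapped in all 34 pairs. Ikzf2, Gzma and Klrb1c together made up 60.7% and 80.5% of the summed CPM of the set in T deltaPOZ and 77.5% and 62.4% in T wt. Summed over all 35 genes the level was 315 and 642 CPM in T deltaPOZ, 820 and 300 CPM in T wt, 50.5 and 30.8 CPM in B deltaPOZ and 18.9 and 81.1 CPM in B wt. Without those 3 genes the T sums were 124 and 125 CPM in T deltaPOZ and 184 and 113 CPM in T wt, and the B sums 42.3 and 28.7 CPM in B deltaPOZ and 15.7 and 50.6 CPM in B wt.

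Other genes of the same pathways showed both directions. Of 23 tested regulatory and helper T genes outside the set, 12 were higher in T tumours and 1 was lower, or 52.2% and 4.35%, against 19.3% higher and 16% lower over all tested genes. Il2ra, the high-affinity IL-2 receptor chain that regulatory T cells share with activated and immature T cells, was at 391 to 604 CPM in T tumours, against 0.293 to 1.12 CPM in B tumours (edgeR log2 fold change 9.42 ± 0.41 SE, adjusted p = 0.00013). Il22, a cytokine of helper T and innate lymphoid cells, had 0.055 and 29.6 CPM in T deltaPOZ and 1.78 and 27.5 CPM in T wt, with 0 counts in all B libraries. Its T mean was thus at least 978-fold higher than a floor of 3 counts over the 4 B libraries (edgeR adjusted p = 0.0371). The type 2 and type 17 cytokines Il5, Il13 and Il17a stayed at or under 0.0743 CPM in every library.

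Of 38 tested NK and cytotoxic genes outside the set, 10 were higher and 5 lower in T tumours, or 26.3% and 13.2%, shares near the 19.3% and 16% over all tested genes. Cd27, a costimulatory receptor of T and NK cells, was at 120 to 163 CPM in T tumours, against 0.247 to 1.4 CPM in B tumours (edgeR log2 fold change 7.50 ± 0.64 SE, adjusted p = 0.000663). Il12rb2, an IL-12 receptor chain, was at 12.4 to 59.3 CPM in T tumours, against 0.0399 to 0.429 CPM in B tumours (edgeR log2 fold change 6.95 ± 0.86 SE, adjusted p = 0.00207). Klra4, a Ly49 receptor of NK cells, was the other way, at 0 to 0.0183 CPM in T tumours, against 0.114 to 1.07 CPM in B tumours (edgeR log2 fold change -5.71 ± 1.19 SE, adjusted p = 0.0156). Of 19 further checkpoint and activation genes, 10 were higher and 2 lower (52.6% and 10.5%). Tox, a factor of T cell development and exhaustion, was at 17.2 to 53.6 CPM in T tumours, against 0.0797 to 0.512 CPM in B tumours (edgeR log2 fold change 6.89 ± 0.72 SE, adjusted p = 0.00128).

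Of 31 tested ligands and receptors that pair with the set, 7 were higher and 6 lower in T tumours, or 22.6% and 19.4%, again near the shares over all tested genes. H60b and Raet1e, ligands of NKG2D, were lower: H60b was at 0 to 0.0743 CPM in T tumours, against 0.645 to 3.22 CPM in B tumours (edgeR log2 fold change -5.44 ± 0.98 SE, adjusted p = 0.00703). Raet1e was at 0.0186 to 0.0663 CPM in T tumours, against 0.299 to 7.35 CPM in B tumours (edgeR log2 fold change -5.29 ± 0.79 SE, adjusted p = 0.004). Tnfsf4, the ligand of OX40, was at 0.216 to 8.75 CPM in T tumours, against 0.0199 to 0.378 CPM in B tumours (edgeR log2 fold change 4.94 ± 1.34 SE, adjusted p = 0.0291). Markers of other cells moved with lineage too: 9 of 10 erythroid genes were called higher in T tumours, with sums of 5564 to 25454 CPM, against 716 to 2141 CPM in B tumours. The 12 macrophage genes had a smallest edgeR adjusted p of 0.112 in this comparison and the 12 neutrophil genes one of 0.115. The part of these cells in the lineage differences was not tested.

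**Figure D3:**
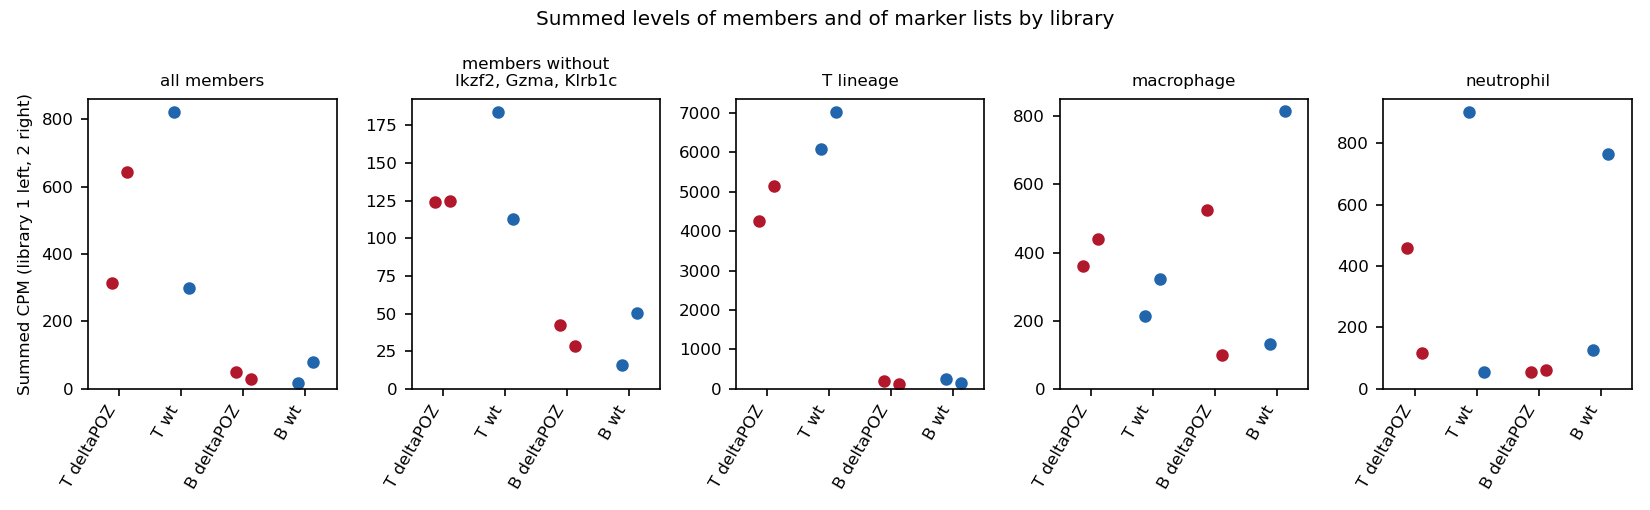
Summed CPM per library of the 35 genes, of the 35 without Ikzf2, Gzma and Klrb1c, and of the T lineage, macrophage and neutrophil marker lists, with deltaPOZ in red and wt in blue and library 1 left of library 2. Among B tumours the sums of the set are highest in B wt 2 and B deltaPOZ 1, which also have the highest macrophage sums, 815 and 526 CPM. Most of the 815 CPM of B wt 2 is Lyz2.

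In B tumours the set was low: 13 of the 35 genes were under 1 CPM in all 4 B libraries, and only Cd160, Klrb1c and Cd69 reached 10 CPM in any. No gene of the set passed the test in B deltaPOZ against B wt, where edgeR called 0.00608% of all tested genes, namely the non-coding Platr10 alone, with 69.8 and 56.6 CPM in B deltaPOZ, against 0.456 and 0.356 CPM in B wt. The count over all genes was 9 without B deltaPOZ 2, 6 without either T wt library and 0 without any of the other 5 libraries. The smallest adjusted p in the set was 0.335. At an unadjusted p under 0.05 there were 7 genes of the set, Tnfrsf18, Il10, Ifng, Il21 and Gzmk with higher and Cd160 and Klrb1c with lower values in B deltaPOZ, beside 12.1% of all tested genes. DESeq2 called 1 gene of the set, Cd160, edgeR without the low count filter called 3 (Cd160, Klrb1c and Gzmk), and limma voom called 0. The median log2 fold change of the 34 tested genes was 0.86, or 0.83 with bounds, against -0.01 over all tested genes, with 26 values above 0 and 8 below. Over all tested genes 48.1% were above 0. Related lists outside the set did not show a shift of this size. Of 38 further NK and cytotoxic genes 20 were above 0 (median 0.07), and of 19 further checkpoint and activation genes 10 (median 0.19). Of 23 further regulatory and helper T genes 6 were above 0 (median -0.17), and of 21 T lineage markers 8 (median -0.18). In 9 of the 35 genes (25.7%) both B deltaPOZ libraries were above both B wt libraries, against 19.9% of all tested genes. In 2 (5.71%) they were below them, against 19.1%. Markers of other cells were not centred on 0 in this comparison either, though none was called. A log2 fold change above 0 was seen in 10 of 10 erythroid genes (median 3.87) and 9 of 12 macrophage genes (median 1.36). The same held for 2 of 12 B lineage genes (median -0.57) and 0 of 12 neutrophil genes (median -2.93). The macrophage sums of the genotypes overlapped, with 526 and 98 CPM in B deltaPOZ, against 131 and 815 CPM in B wt. At an unadjusted p under 0.05 were 7 erythroid, 0 macrophage, 2 B lineage and 1 neutrophil gene, and the smallest edgeR adjusted p over these lists was 0.0638. Their part in the values of the set was not tested.

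The high values of the checkpoint receptor Cd160 and of NK receptors in B tumours belonged to separate libraries. Cd160 had 0.468 and 0.219 CPM in B deltaPOZ, against 0.512 and 16.7 CPM in B wt (edgeR log2 fold change -4.64 ± 1.52 SE, adjusted p = 0.335; DESeq2 adjusted p = 0.00401). The wt group is high through B wt 2 alone. Klrb1c had 2.71 and 0.777 CPM in B deltaPOZ, against 1.48 and 26 CPM in B wt, where again B wt 2 is the high library and the groups overlap (edgeR log2 fold change -2.97 ± 1.21 SE, adjusted p = 0.404). The other wt library was just above both B deltaPOZ libraries for Cd160 and between them for Klrb1c. B wt 2 also held Klra1, a Ly49 receptor picked out after its values were seen, at 40.2 CPM, against at most 1.59 CPM in the other 7 libraries. Klrd1, at 3.8 CPM, was likewise highest of all libraries in B wt 2. Ncr1 was 0.578 CPM and Prf1 0.845 CPM there, each against 1.31 CPM in B deltaPOZ 1, the highest B library for both. The neutrophil sum of B wt 2 was 764 CPM, against 55.2 to 128 CPM in the other B libraries. Lyz2, of the macrophage list, was 633 CPM there, against 32.8 to 144 CPM.

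B deltaPOZ 1 was the highest of the 4 B libraries for 22 of the 35 genes, beside 25.5% of all tested genes. B wt 2 was highest for 9 genes, beside 21.7% of all genes, B deltaPOZ 2 for 4, beside 24.4%, and B wt 1 for none, beside 28.4%. The genes led by B deltaPOZ 1 span most roles: Klrk1 and Ncr1 of the NK receptors, 7 of 8 granule genes, both T-box factors and Ccl4, Ccl5, Cxcr3 and Il2rb. Klrk1 had 4.25 and 0.638 CPM in B deltaPOZ, against 0.949 and 1.73 CPM in B wt, so the genotypes overlap (edgeR log2 fold change 0.87 ± 0.87 SE, adjusted p = 0.721). Il2rb had 6.83 and 2.17 CPM in B deltaPOZ, against 1.39 and 2.82 CPM in B wt (edgeR log2 fold change 1.10 ± 0.82 SE, adjusted p = 0.62). The macrophage genes C1qa and Adgre1 were also highest in this library. C1qa was at 38.7 CPM in B deltaPOZ 1, against 4.54 to 9.27 CPM in the other B libraries, and Adgre1 at 32 CPM, against 3.32 to 12 CPM. The whole macrophage list, which includes Lyz2, was instead highest in B wt 2. It summed to 526 and 98 CPM in B deltaPOZ, against 131 and 815 CPM in B wt. Most of the 815 CPM of B wt 2 was Lyz2, and the top rank of that library rests on this gene. Cd3e was 0.14 to 0.332 CPM in all B libraries, and no T lineage marker was at 0. The 21 T lineage markers summed to 192 and 127 CPM in B deltaPOZ, against 245 and 157 CPM in B wt. This sum was highest in B wt 1, the library that led none of the 35 genes. Genes other than Cd3e carried it, such as Lck, with a mean of 22 CPM over the B libraries. The sum can therefore not be read as T cell content in these tumours.

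**Figure D4:**
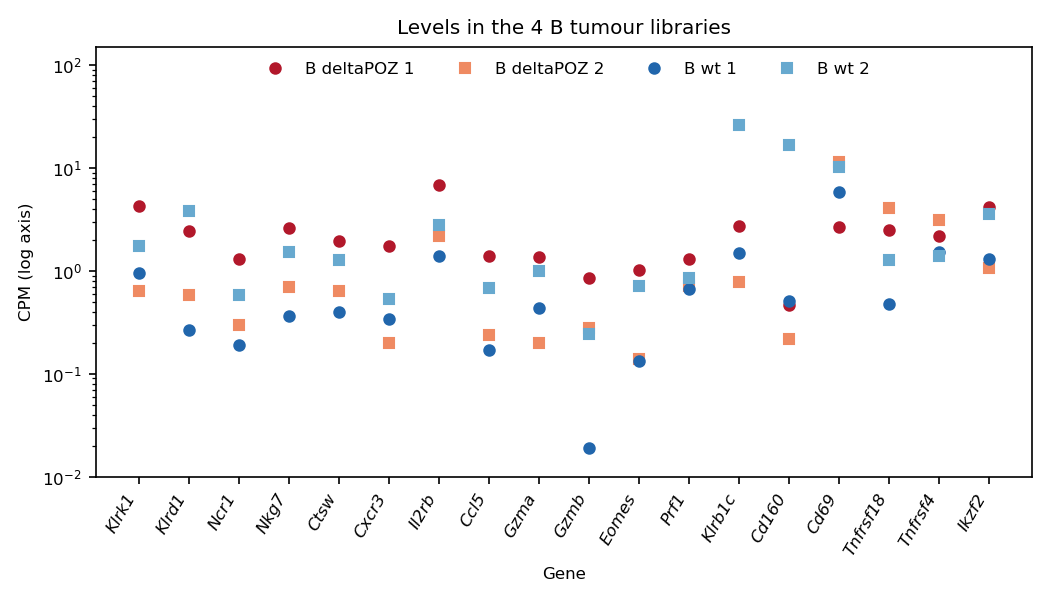
CPM on a log axis of 18 genes of the set in the 4 B tumour libraries, with deltaPOZ in red shades and wt in blue shades. B deltaPOZ 1 is the top point for most NK and granule genes, B wt 2 for Klrb1c and Cd160, and B deltaPOZ 2 for Tnfrsf18, Tnfrsf4 and Cd69.

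Several low genes had higher values in both B deltaPOZ libraries without passing the test. Tnfrsf18 had 2.5 and 4.07 CPM in B deltaPOZ, against 0.475 and 1.29 CPM in B wt, and did not overlap (edgeR log2 fold change 1.90 ± 0.62 SE, adjusted p = 0.335). Tnfrsf4 had 2.16 and 3.09 CPM in B deltaPOZ, against 1.52 and 1.4 CPM in B wt, also without overlap (edgeR log2 fold change 0.85 ± 0.62 SE, adjusted p = 0.613). Ifng had 12 counts over both B deltaPOZ libraries, against 0 over both B wt libraries, at least 3.86-fold higher on a floor of 3 counts over the group (edgeR adjusted p = 0.335). Il10, Il21 and Gzmk were at most 0.468 CPM in B deltaPOZ, against at most 0.0222 CPM in B wt, and their groups did not overlap (edgeR adjusted p of 0.397 to 0.41). That separation rests on few reads. Il10 had 9 and 2 counts in B deltaPOZ, against 0 and 1 in B wt, and Il21 had 2 and 1, against 0 and 0. Gzmk had 24 and 2 counts in B deltaPOZ, against 1 and 0 in B wt.

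Tnfrsf18 and Tnfrsf4 lie 9.55 kb apart near the end of chromosome 4 (GRCm38, chr4:156026164-156028895 and chr4:156013843-156016612, plus strand), a stretch in which many genes had higher values in B deltaPOZ. Of 489 tested genes beyond 120 Mb of that chromosome, 75.1% had a log2 fold change above 0, with a median of 0.53. The other 15259 autosomal genes had 47.5% above 0 and a median of -0.02. The 48 genes within 1 Mb of Tnfrsf18 had a median of 0.83, with 81.2% above 0. The log2 fold change of Tnfrsf4, 0.85, was thus at the median of its neighbours, and that of Tnfrsf18, 1.90, was above it. The Zbtb17 gene lies on the same stretch, with a log2 fold change of -0.07. The cause of the higher values on this stretch was not tested, and sex and genotype cannot be told apart in these tumours.

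**Figure D5:**
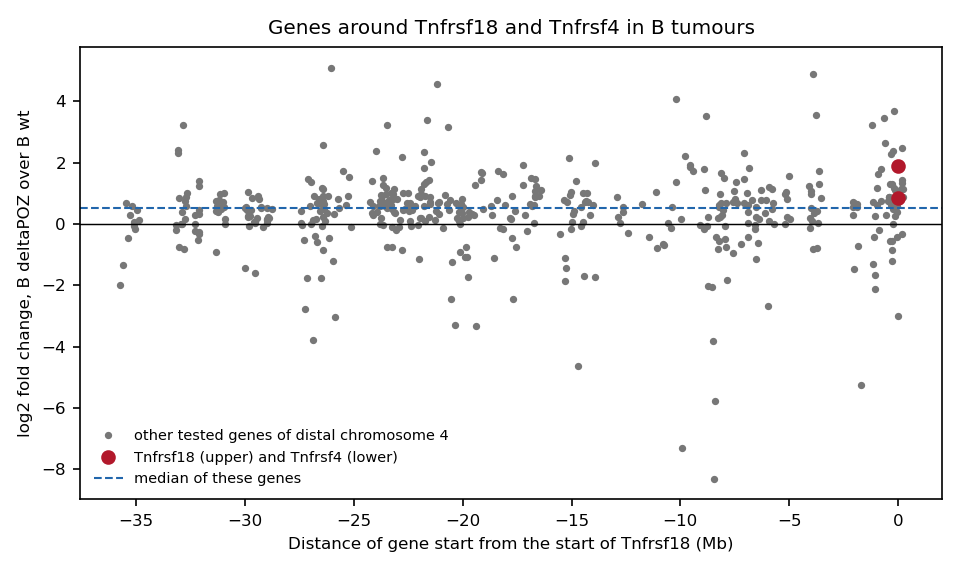
Log2 fold change of B deltaPOZ over B wt (y axis, edgeR fit) for 489 tested genes of distal chromosome 4, by distance of their start from that of Tnfrsf18 in Mb (x axis). Most points lie above 0 and the dashed line marks their median of 0.53. Tnfrsf4 (lower red point) lies among its neighbours and Tnfrsf18 (upper red point) above most of them.

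In T tumours no gene of the set passed the test in T deltaPOZ against T wt, groups that also differ in the ENU tag. edgeR called 0% of all tested genes and 0 of the set, and no gene of the set reached an unadjusted p under 0.05, beside 2.65% of all tested genes. DESeq2 and limma voom called 0 genes of the set, and edgeR without the low count filter called 2, Gzma and Ikzf2. The median log2 fold change of the 34 tested genes was -0.62, against 0.00 over all tested genes, with 8 values above 0 and 26 below. In 13 of the 35 genes (37.1%) both T deltaPOZ libraries were below both T wt libraries, against 17% of all tested genes. In 0 were they above them, against 15.4%. T wt 1 was the highest T library for 18 of the 35 genes, beside 27.1% of all tested genes. T wt 2 was highest for 8, beside 23.8%, T deltaPOZ 1 for 5, beside 24.4%, and T deltaPOZ 2 for 4, beside 24.7%. T wt 1 was also the T library with the highest Xist, 1246 CPM, and the lowest Ddx3y, 22.5 CPM. The part of this difference in the T values was not tested.

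Levels varied widely within each genotype of the T tumours. Gzma had 92.6 and 298 CPM in T deltaPOZ, against 134 and 52.8 CPM in T wt, which overlap (edgeR log2 fold change 1.06 ± 0.87 SE, adjusted p = 1). Ikzf2 had 47.8 and 134 CPM in T deltaPOZ, against 384 and 47.2 CPM in T wt, where T wt 1 stands apart (edgeR log2 fold change -1.24 ± 1.07 SE, adjusted p = 1). Fasl had 0.33 and 0.895 CPM in T deltaPOZ, against 5.31 and 1.24 CPM in T wt, without overlap (edgeR log2 fold change -2.41 ± 1.04 SE, adjusted p = 1). Tnfrsf4 had 1.47 and 1.06 CPM in T deltaPOZ, against 5.22 and 1.73 CPM in T wt (edgeR log2 fold change -1.46 ± 0.63 SE, adjusted p = 1). For both of these T wt 1 was the highest library and T wt 2 lay just above the T deltaPOZ values. Klrb1c had 51.1 and 84.4 CPM in T deltaPOZ, against 118 and 87.7 CPM in T wt (edgeR log2 fold change -0.60 ± 1.10 SE, adjusted p = 1). Neutrophil genes were also high in T wt 1, whose list summed to 902 CPM, against 56.5 CPM in T wt 2 and 458 and 117 CPM in T deltaPOZ. Their part in these values was not tested.

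The deltaPOZ effect was not shown to differ between the lineages for any gene of the set. In T tumours this effect cannot be told apart from the ENU tag, and in B tumours not from sex. The difference of the effects, T minus B, was called for 0 of the 34 genes and for 0% of all tested genes (edgeR), with 7 genes of the set at an unadjusted p under 0.05, beside 6.26% of all tested genes. DESeq2 called 1 gene, Cd160 (adjusted p = 0.0473), and edgeR without the low count filter called 7. The median difference was -1.40 for the set, against 0.02 over all tested genes. Cd160 had a difference of 5.58 ± 1.96 (log2, SE; edgeR adjusted p = 0.732) and B wt 2 was again the library with the high level. Over all genes the count of 0 became 4 without T wt 1.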

How the data were processed

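RNA was extracted with a MagMax-96 kit and made into TruSeq Stranded mRNA libraries, per the labels' protocols. The deposited files hold raw read counts per Ensembl gene. The submitters' processing notes name TopHat2 2.0.10, SAMtools, HTSeq, DESeq, mm10 and GRCm38. No source used here gives the annotation release or whether counting used strand. Reads in no feature were 30.4 to 39.3% and ambiguous reads 0.471 to 0.554% of a library. These rows, which name no gene, were left out. Of 41214 identifiers, 40340 (97.9%) were in GENCODE M21, which gave symbols and exon lengths.

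CPM used TMM-scaled totals of the tested genes. edgeR 4.0.16 (R 4.3.3) fitted 1 mean per group to all 8 libraries with a quasi-likelihood test after filterByExpr (16456 genes, 4 residual degrees of freedom, biological coefficient of variation 0.45), with Benjamini-Hochberg adjustment across every tested gene. Tests are two-sided, and a call is an adjusted p under 0.05. With 2 mice per group, p-values rest on a spread shared by all groups. Alternatives were DESeq2 1.42.0, limma 3.58.1 with voom, other filters and thresholds, each lineage fitted alone, and each library left out.

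The genes of the set and the marker lists were chosen with earlier results of these data known. Every gene of the set is named, by library where it reached 1 CPM in any library. From each further list, up to 3 called genes with the largest fold are named, and Klra1, Il5, Il13, Il17a and the single cell type markers given were picked after their values were seen. Some genes of these lists are not reported here.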

Additional observations from a re-analysis of the deposited data

How the results depend on the processing

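In T against B, the 21 calls of the set gave 336 alternative values, of which 242 stayed called, 94 lost the call and 0 reversed. Gzma, Icos, Ikzf2 and Prf1 kept it in every alternative. Over all genes the count of 5801 was 2834 for deltaPOZ tumours alone, 2700 for wt tumours alone and 3621 to 4900 with each library left out. For the set, the 21 became 6, 12 and 10 to 18 under the same settings.

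In B deltaPOZ against wt, the count over all genes was 682 with DESeq2, 6 with limma voom, 1324 with no low count filter, 6 with B tumours fitted alone, 39 at a threshold of 0.1, and 0 to 9 with each library left out. It was 0 without B deltaPOZ 1 and B wt 2 together, a setting chosen after seeing the data. The set gave 1 call with DESeq2 and 3 with no filter. In T deltaPOZ against wt, DESeq2 called 51 genes and edgeR with no filter 254, of which 2 in the set. For the difference of the effects these were 225 and 784 genes, with 1 and 7 in the set, and 0 to 4 genes with each library left out. The cause of these changes was not tested.

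No paired analysis was possible because the replicate numbers follow the order of deposit and pair no mice. With 2 mice per group, genes under 1 CPM, the cytokines and Foxp3 among them, rest on few reads, and the floors of 3 counts cover counting error only.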
